A study of Bos taurus with 48 samples.

Results

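Jersey (J) bull calves were bled before and after gradual weaning, and the comparison described here is d 1 minus d -14 within each calf, where d 0 is the day on which milk replacer ended. It was chosen by breed and day, and holds 16 of the 48 libraries of the series, from all 8 J calves. The study left out 1 J calf that its labels do not name, so that the number of genes called is also given without the calves that stood apart, while other counts are for all 8 unless stated. The other libraries came from 8 Holstein-Friesian (H-F) calves on the same days and from the J calves on d 8.

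All calves were group housed indoors, ate concentrate and milk replacer from an automatic feeder, and had the milk replacer withdrawn in steps over 14 days. The labels of the J calves give breed, day and a calf number. No age is given in the labels, and every calf was weaned, so that the effect of weaning and that of becoming 15 days older cannot be told apart. The RNA was from whole blood, a mixture of neutrophils, lymphocytes, monocytes, eosinophils, platelets and red cell precursors. In such samples fewer cells of a type and less RNA per cell cannot be told apart.

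When a calf is weaned, its supply of milk fat and lactose ends and fermentation in the rumen becomes its main source of energy. Blood leukocytes are known to respond to changes in diet and to handling stress. Neutrophils carry receptors for chemokines and complement fragments, eosinophils store basic proteins in granules, and most nucleated cells can switch on interferon-stimulated antiviral genes. Monocytes and macrophages handle lipids with enzymes such as lipoprotein lipase.

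The 16 libraries held 26219017 to 39095624 counts, with a median of 4.99% and 5.14% of gene counts in the 10 most abundant genes on d -14 and d 1. The spike-in share was 0.212% ± 0.041 on d -14 and 0.217% ± 0.028 on d 1 (SD, n = 8, exact two-sided sign-flip p = 0.805), and the share of the 10 most abundant genes gave p = 0.477 by the same exact test, where the smallest possible p is 0.00781. A level is given in CPM, the count relative to the total of the library. Markers of lymphocytes, platelets and eosinophils were detected in all groups. Gene symbols could be matched for 696 of the 12717 genes tested, all of them genes that the study had chosen for differing between the breeds on these samples, and other genes were described by number.

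Calves 9 and 85 stood apart from the other 6 J calves. The SD over genes of the log2 change from d -14 to d 1 was 0.53 in calf 85 and 0.46 in calf 9, against 0.22 to 0.30 in the other J calves and 0.23 to 0.30 in the 8 H-F calves. Across the 12717 genes, which are not independent replicates, the changes of calves 9 and 85 had a correlation of 0.81, while the next of the 28 pairs of J calves had 0.41. On d 1 the summed level of the small RNA genes was 44.5 CPM in calf 85 and 34.6 CPM in calf 9, and 10.8 to 23.0 CPM in the other J calves.

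**Figure D1:**
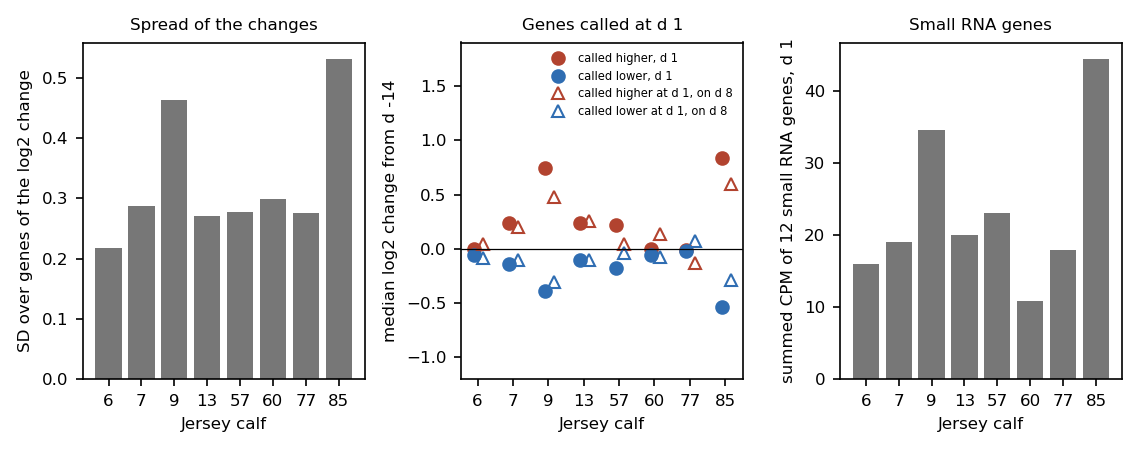
The panels show, for each J calf, the SD over 12717 genes of the log2 change from d -14 to d 1, the median log2 change from d -14 of the genes called higher (red) or lower (blue) at d 1, on d 1 (filled circles) and d 8 (open triangles), and the summed CPM of 12 small RNA genes on d 1. Calves 9 and 85 have the widest changes and the highest small RNA levels.

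A gene was called where its adjusted p in edgeR's quasi-likelihood test with calf as a block was under 0.1, which is an FDR of 10%. From d -14 to d 1, 731 of 12717 genes (5.75%) were called in J calves, 509 higher (4%) and 222 lower (1.75%) on d 1. Of these, 72 (0.566%) also changed at least 1.5-fold and are the differentially expressed genes (DEG), 55 of which rose and 17 fell. Most changes were small: the median log2 fold change was 0.30 for the genes that rose and -0.18 for those that fell, against 0.00 for all genes tested.

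These counts rested most on calves 9 and 85, but also on other calves and on the threshold, since 12 genes passed an FDR of 5%. Without calf 85 the test called 7 genes (0.0552% of 12677), without calf 9 it called 4 (0.0315% of 12691), and without both it called 2. With all calves 3107 genes had p under 0.05 before adjustment. That number was 1111 without calf 85, 1311 without calf 9, and 326 of 12640 without both. Leaving out calf 7 gave 21 calls, calf 57 gave 32 and calf 13 gave 318, whereas leaving out calf 6, 60 or 77 gave 2244, 2457 or 2662. Without calf 7 or calf 57, 2917 or 2819 genes still had p under 0.05 before adjustment. With no calf block, edgeR called 0 genes (1174 had p under 0.05 before adjustment). A fit of the 16 libraries of this comparison alone called 3 genes, none of them rising, and no filter on low counts left 111 calls. DESeq2 and limma-voom with the block called 1343 and 1335.

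**Figure D2:**
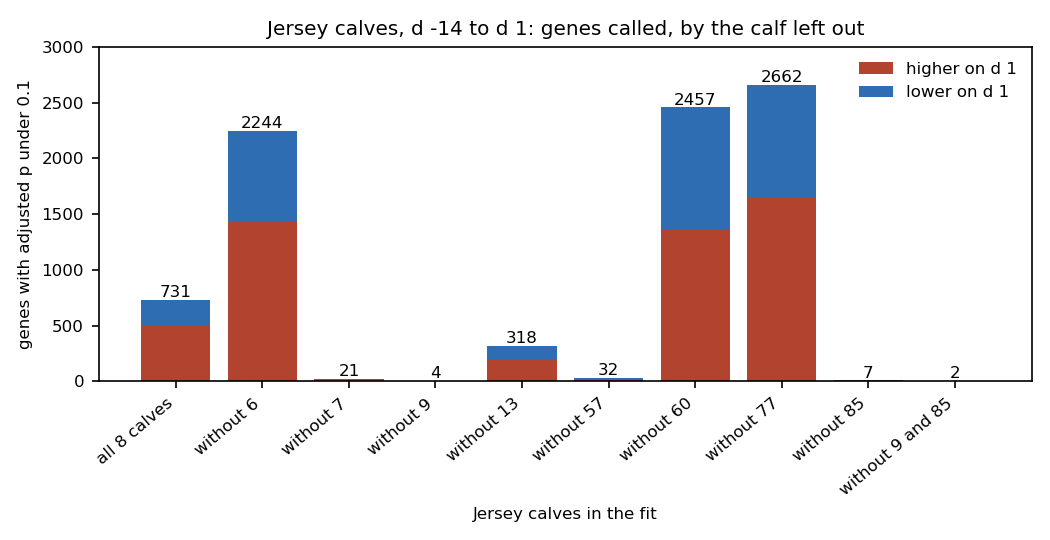
Bars give the number of genes with an adjusted p under 0.1 for d 1 against d -14 (red, higher on d 1; blue, lower), with all 8 J calves, with each calf left out and with calves 9 and 85 both left out. The total is 731 with all calves and ranges from 4 to 2662 when 1 calf is left out.

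The largest change was in calf 9 or calf 85 for 468 of the 509 rising and 193 of the 222 falling genes. These calves had the widest changes over all genes, and the same share over all genes tested was not computed. The median log2 change of the rising genes was 0.83 in calf 85 and 0.75 in calf 9, 0.22 to 0.24 in calves 7, 13 and 57, and between -0.01 and 0.00 in calves 6, 60 and 77. On d 8 the same genes were 0.60 and 0.47 above their d -14 level in calves 85 and 9. In the H-F calves, which share no library with this comparison, 466 of the 509 rising genes had a log2 fold change above 0 and 172 of the 222 falling genes one below 0, where 59.2% of all genes tested had the same sign in both breeds.

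The falls that did not rest on calf 85 were in 7 genes, all among the DEG and all lower on d 1 in 8 of 8 calves, as were 87 genes of all tested (0.684%). Of the 7, 4 were also called without calf 9, and 4 kept their call without each single calf in turn. None of the 7 could be matched to a symbol. Their log2 fold changes ran from -2.38 to -0.78 with all 8 calves, and their adjusted p-values from edgeR ran from 0.00122 to 0.0611 without calf 85. With no block the smallest was 0.525.

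The gene with the smallest p was ENSBTAG00000013178. Its level was 5.87 to 137 CPM (median 22.4) on d -14 and 1.88 to 57.8 CPM (median 5.56) on d 1. Calf 57 was the highest and calf 85 the lowest on both days, so that the groups overlapped although every calf fell. The log2 fold change was -1.85 ± 0.25 (SE, n = 8, edgeR adjusted p = 0.000259), which is a fall of 3.59-fold, and within calves the log2 change ran from -2.76 in calf 60 to -0.63 in calf 13.

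ENSBTAG00000038748, another of these genes, stood at 118 to 2671 CPM (median 565) on d -14 and at 34.9 to 1068 CPM (median 126) on d 1. Calf 57 again held the highest and calf 85 the lowest level on each day. The 6 calves between them lay close together on d -14, at 482 to 760 CPM, but less so on d 1, at 81.2 to 373 CPM. The log2 fold change was -1.92 ± 0.30 (SE, n = 8, edgeR adjusted p = 0.00184). These 2 genes were the ones still called without calves 9 and 85, with adjusted p-values from edgeR of 0.014 and 0.0536.

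The other 5 of the 7 genes had log2 fold changes from -2.38 to -0.78, with median levels of 1.33 to 177 CPM on d -14 and of 0.311 to 95.8 CPM on d 1. Over the 7 genes, the median log2 change was -0.59 in calf 57 and -0.72 in calf 13, the smallest falls, and -2.51 in calf 7 and -2.76 in calf 60, the largest. In H-F calves all 7 were below 0 from d -14 to d 1, with log2 fold changes of -2.01 to -0.54, and 6 were called, where 0.731% of genes were called as falling. Their interaction of breed and day gave edgeR adjusted p-values of 0.485 to 0.861. On d 8, read against the same d -14 libraries, the J calves had log2 fold changes of -3.20 to -0.75 for these genes.

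**Figure D3:**
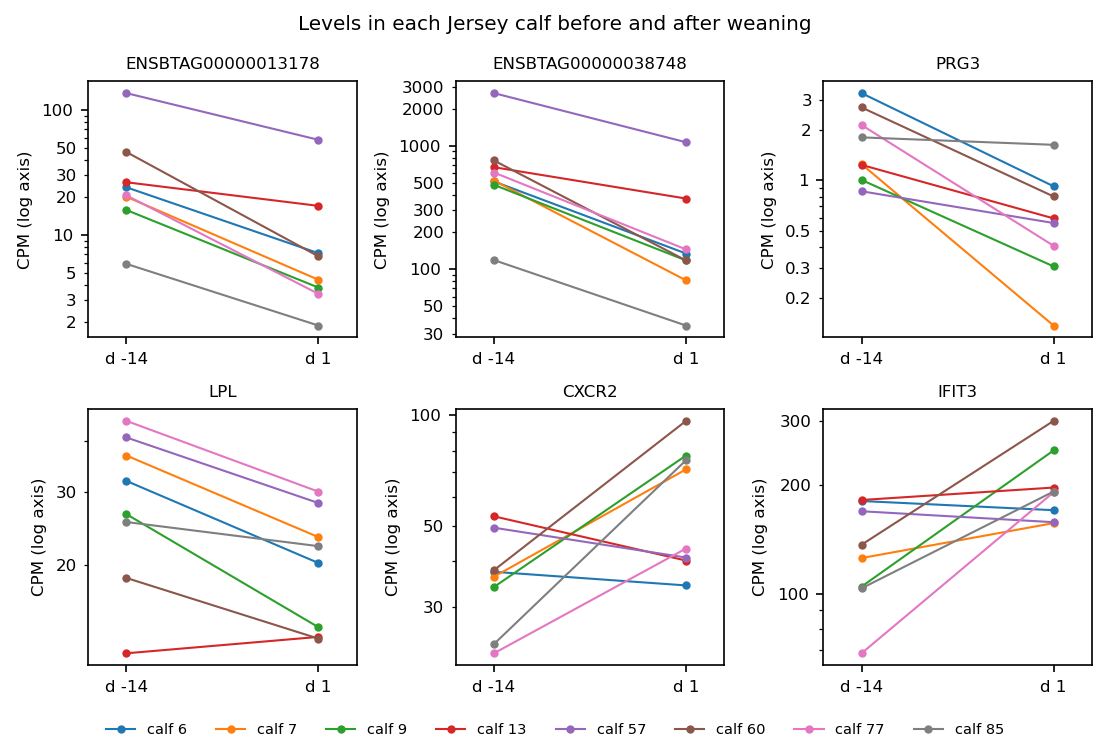
Each line joins the CPM of a J calf on d -14 and d 1 (log axes), coloured by calf. Both genes given by identifier fall in all 8 calves over a wide range of levels, PRG3 falls least in calf 85, LPL is higher on d 1 in calf 13 alone, and CXCR2 rises in 5 calves and IFIT3 in 6.

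Among the 696 genes with a symbol, 51 were called (7.33%, against 5.75% of all genes tested), 39 higher and 12 lower on d 1, with log2 fold changes from -1.58 to 0.94 and edgeR adjusted p-values from 0.0367 to 0.098. For each of the 51 the levels of the days overlapped, as they did for each of the 7 genes called without calf 85. The share over all genes tested is not given, so the overlap is not particular to the 51. All 51 kept their sign without calf 85, but none was called: the lowest adjusted p was then 0.449, and it was 0.218 without calf 9 and 0.525 with no block. The largest rise was in calf 9 or 85 for 34 of the 39, and the largest fall for 6 of the 12, with no share over all genes computed. Only THBS1 of the 51 was also called in H-F calves from d -14 to d 1, where 1.51% of all genes were.

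**Figure D4:**
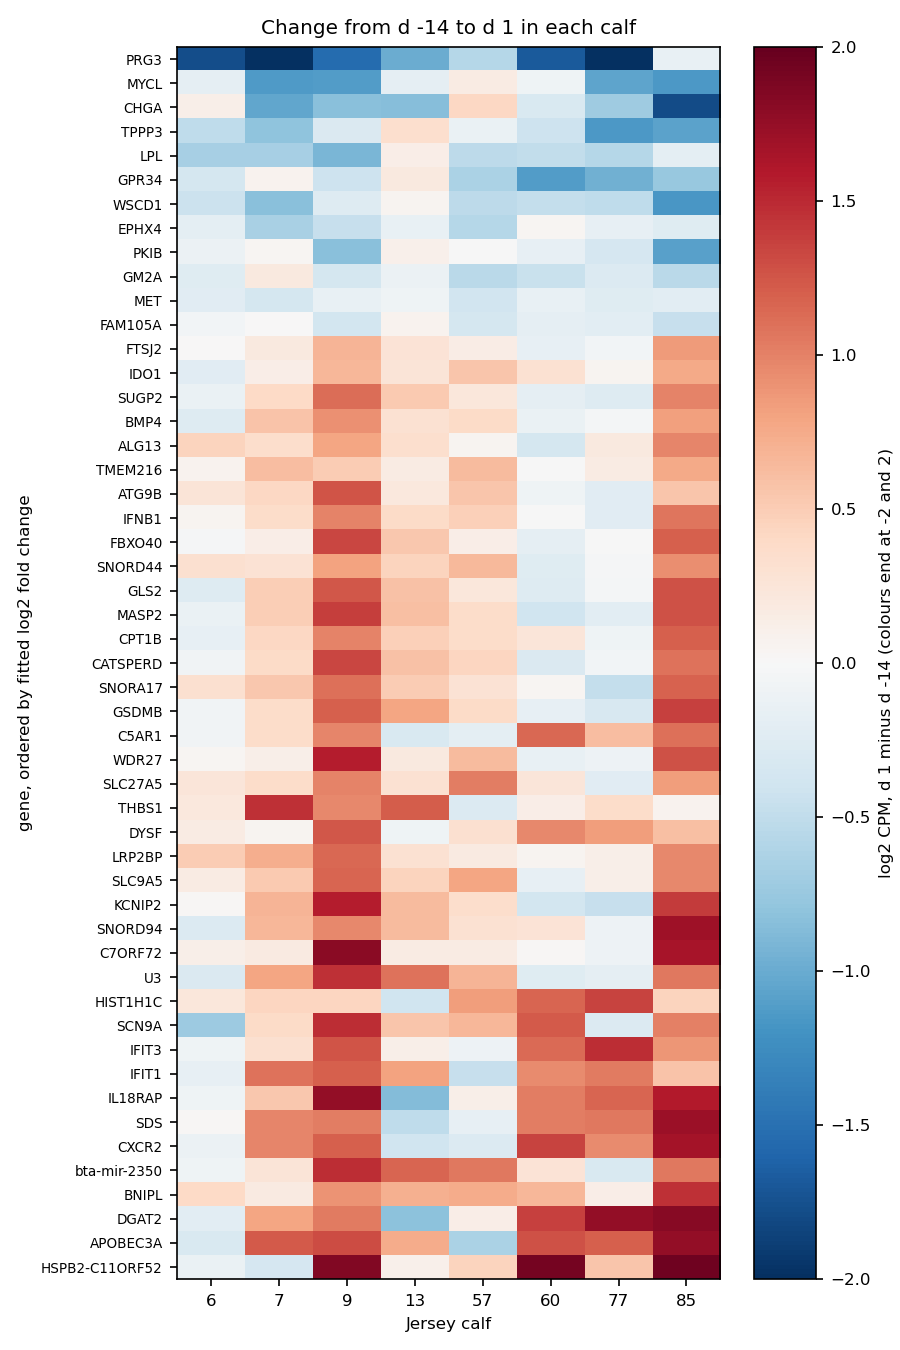
Colours give the log2 change in CPM from d -14 to d 1 of the 51 called genes with a symbol (rows, ordered by fitted log2 fold change) in each J calf (columns). The columns of calves 9 and 85 hold most of the strong rises, calf 6 is near 0 for many genes, and calves 60 and 77 rise mainly in the lower rows.

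The eosinophil granule protein PRG3 (proteoglycan 3, a relative of major basic protein) had the largest fold change of the genes with a symbol. It stood at 0.861 to 3.30 CPM (median 1.52) on d -14 and at 0.137 to 1.63 CPM (median 0.575) on d 1, which is 26 to 107 counts and 5 to 44 counts per library. It was lower on d 1 in all 8 calves, least so in calf 85 and most in calf 7. Its fitted log2 fold change was -1.58 ± 0.45 (SE, n = 8, edgeR adjusted p = 0.0936), and -1.88 without calf 85 (adjusted p = 0.449). The 2 other eosinophil, basophil and mast cell markers tested were not called: HRH4, a histamine receptor, had a log2 fold change of 0.02 and SMPD3, a sphingomyelinase, one of 0.08.

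CXCR2, the chemokine receptor that draws neutrophils towards CXC chemokines, stood at 22.4 to 53.0 CPM (median 36.8) on d -14 and at 34.3 to 96.6 CPM (median 57.2) on d 1. Calves 7, 9, 60, 77 and 85 were higher and calves 6, 13 and 57 lower on d 1, with changes from -0.40 in calf 13 to 1.67 in calf 85. CXCR2 had a log2 fold change of 0.70 ± 0.21 (SE, n = 8, edgeR adjusted p = 0.0936), and 0.54 without calf 85 (adjusted p = 0.547).

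IL18RAP, the accessory chain of the interleukin-18 receptor, stood at 2.81 to 6.24 CPM (median 3.90) on d -14 and at 3.39 to 10.3 CPM (median 6.33) on d 1. It was higher in 6 of 8 calves, lowest in its change in calf 13 and highest in calf 9, with a log2 fold change of 0.66 ± 0.20 (SE, n = 8, edgeR adjusted p = 0.0936). C5AR1, the receptor for complement fragment C5a, rose by 0.46 ± 0.15 on the log2 scale and was higher in 5 of 8 calves. DYSF, the membrane repair protein dysferlin, which monocytes also make, rose by 0.53 ± 0.14 and was higher in 7 of 8.

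The other neutrophil markers tested were not called. Of 25 listed, 4 could be tested, CXCR2 included, so most of the list was not seen. Of the 4, 1 rose, where 4% of all genes tested rose, and none fell. The median log2 fold change was 0.01 against 0.00 for all genes. FCGR3A, an Fc receptor also in the cytotoxic list, was at a median of 181 CPM on d -14 and 183 CPM on d 1. The summed level of the 4 was 144 to 355 CPM on d -14 and 198 to 296 CPM on d 1, most of it FCGR3A. Of the 3 complement and Toll-like receptor genes tested, out of 32 listed, C5AR1 was called. C3AR1, the receptor for complement fragment C3a, had the largest log2 fold change of the list, in the other direction, at -0.60 ± 0.26 (SE, n = 8, edgeR adjusted p = 0.156), and was lower in 6 of 8 calves. Complement factor CFB was higher in 8 of 8 calves with a log2 fold change of 0.44 (edgeR adjusted p = 0.112). Of the 12 genes tested of inflammatory cytokines, chemokines and their receptors, which match 11 of 43 listed symbols, 2 rose, and the median was 0.16. Over all genes tested, 4% rose. The 2 were CXCR2 and IL18RAP, the same genes that were called in the neutrophil and cytotoxic lymphocyte lists. The cytokine IL1B had a log2 fold change of 0.55 (edgeR adjusted p = 0.136).

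The list of antiviral interferon-response genes lay mostly above 0. Of 49 genes listed, 14 could be tested, each chosen by the study for differing between the breeds on these samples. Their changes are therefore not independent of that choice. Of the 14, 3 rose and none fell, IFIT3, IFIT1 and IFNB1. Of the 696 genes with a symbol 39 rose, as did 4% of all genes tested. Among the 14, 13 had a log2 fold change above 0, with a median of 0.38 against 0.00 for all genes. Without calf 85 their median was 0.46 and none was called. The median change over the 14 was above 0 in 7 of 8 calves, from 0.01 in calf 57 to 1.09 in calf 13, where all 14 members were higher, and it was -0.26 in calf 85.

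IFIT3, which binds IFIT1 in the recognition of viral RNA, stood at 68.3 to 181 CPM (median 131) on d -14 and at 157 to 300 CPM (median 191) on d 1. Calf 77 was the lowest on d -14 and rose the most, and calves 6 and 57 were slightly lower on d 1. Its log2 fold change was 0.64 ± 0.18 (SE, n = 8, edgeR adjusted p = 0.0936), and 0.59 without calf 85 (adjusted p = 0.547). IFIT1 itself went from a median of 180 CPM (112 to 284) to 270 CPM (151 to 357), higher in 6 of 8 calves, with a log2 fold change of 0.66 ± 0.22 (SE, n = 8, edgeR adjusted p = 0.0978).

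IFNB1, the cytokine interferon beta, rose by 0.39 ± 0.12 on the log2 scale (SE, n = 8, edgeR adjusted p = 0.0951), most in calf 85. Cattle carry several near-identical copies of this gene, so its counts are uncertain. DHX58, a regulator of RNA sensing, was higher in 8 of 8 calves with a log2 fold change of 0.38 ± 0.15, but its edgeR adjusted p was 0.13. ISG15, a ubiquitin-like modifier, and OAS2, an oligoadenylate synthetase, were higher in 7 of 8 calves, with calf 85 as the exception, and had log2 fold changes of 0.65 ± 0.34 and 0.66 ± 0.33 with adjusted p-values of 0.232 and 0.205. CXCL10, an interferon-induced chemokine, was the member below 0, at -0.11.

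In H-F calves 11 of the 14 interferon genes were below 0 from d -14 to d 1, with a median log2 fold change of -0.12 and none called. The difference between breeds did not pass the test for any of the 14, and the smallest edgeR adjusted p of the interaction was 0.559, with an unadjusted p of 0.0298. APOBEC3A, a cytidine deaminase that interferon induces and that was not in the list, rose in J calves by 0.88 ± 0.27 (SE, n = 8, edgeR adjusted p = 0.0936), from 4.15 to 13.7 CPM on d -14 to 8.07 to 22.8 CPM on d 1. IDO1, a tryptophan-degrading enzyme, rose by 0.31 ± 0.10 and was higher in 7 of 8 calves.

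**Figure D5:**
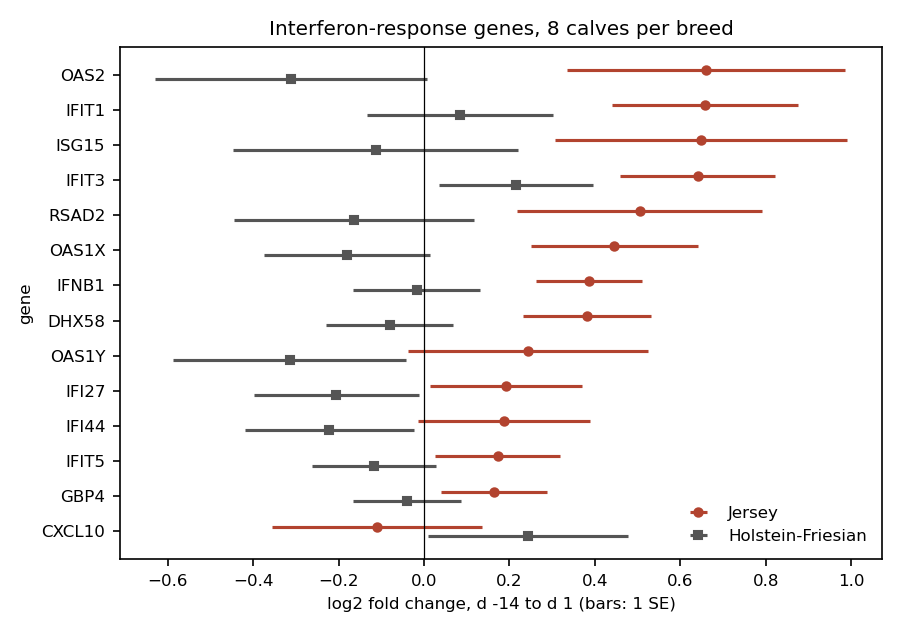
Points give the log2 fold change from d -14 to d 1 of the 14 interferon-response genes in J calves (red circles) and H-F calves (grey squares), 8 calves per breed. Bars are 1 SE from the fit of all 48 libraries. The J estimates are above 0 for 13 genes and the H-F estimates below 0 for 11, and no difference passed the interaction test.

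Several called genes encode enzymes of lipid and fuel metabolism, a grouping made after their values were seen, and they moved in both directions. LPL, which releases fatty acids from lipoproteins and is made by macrophages, stood at 12.2 to 44.7 CPM (median 29.2) on d -14 and at 13.2 to 30.1 CPM (median 21.2) on d 1. It was lower in 7 of 8 calves, with calf 13, the lowest on d -14, as the exception. For LPL the log2 fold change was -0.51 ± 0.15 (SE, n = 8, edgeR adjusted p = 0.0936), and -0.55 without calf 85 (adjusted p = 0.529).

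DGAT2, which makes triglyceride from diacylglycerol, rose from 19.3 to 85.6 CPM (median 61.5) to 48.2 to 174 CPM (median 83.6). Calf 13 was the lowest in its change and calves 60, 77 and 85 the highest, and the log2 fold change was 0.79 ± 0.25 (SE, n = 8, edgeR adjusted p = 0.0936). SDS, the serine dehydratase that turns serine into pyruvate, stood at 477 to 1726 CPM (median 1094) on d -14 and 989 to 2278 CPM (median 1526) on d 1. Its log2 fold change was 0.68 ± 0.21 (SE, n = 8, edgeR adjusted p = 0.0936), with calves 13 and 57 lower on d 1.

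Smaller rises were in CPT1B, which admits long-chain fatty acids into mitochondria (0.43 ± 0.12 on the log2 scale, higher in 6 of 8 calves), SLC27A5, an acyl-CoA synthetase (0.48 ± 0.14, 7 of 8), and the glutaminase GLS2 (0.42 ± 0.13, 5 of 8). GM2A, a lysosomal activator of ganglioside breakdown, fell by 0.28 and was lower in 7 of 8. Of the metabolic gene lists, 2 genes of fatty acid oxidation and PPAR targets were tested and CPT1B was called, and the single member tested of LXR targets was LPL. The members tested of the lists of sterol synthesis (2), glycolysis (1), short-chain fatty acid receptors and ketone use (1) and oxidative phosphorylation (1) included none that was called.

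Markers of lymphocytes showed few calls, but none of the 28 T cell markers listed could be tested. Of the 10 B cell markers tested, out of 21 listed, none was called and the median log2 fold change was 0.02. MS4A1 (CD20) was at a median of 362 CPM on d -14 and 396 CPM on d 1. In H-F calves 3 of the same 10 were called as rising (0.778% of all genes) and the median was 0.24. Of the 10 cytotoxic lymphocyte genes tested, which match 9 of 30 listed symbols, IL18RAP rose and none fell, and the median was 0.07. Over all genes tested, 4% rose. Granzyme GZMA was lower on d 1 in 6 of 8 calves, with a log2 fold change of -0.33 (edgeR adjusted p = 0.252).

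Of the 10 platelet and megakaryocyte genes tested, out of 23 listed, THBS1 rose, where 4% of all genes tested did. In this list 7 were below 0, with a median of -0.14. THBS1, the matrix glycoprotein thrombospondin 1 of platelets and monocytes, went from 14.0 to 51.6 CPM (median 18.7) to 16.4 to 59.8 CPM (median 29.9). Calf 6 was the highest on d -14, calf 57 was the single calf that fell and calf 7 rose the most. The log2 fold change was 0.51 ± 0.16 (SE, n = 8, edgeR adjusted p = 0.095) in J calves and 0.79 ± 0.16 (SE, n = 8, edgeR adjusted p = 0.0102) in H-F calves. The platelet granule chemokine PF4 was lower in 6 of 8 J calves, with a log2 fold change of -0.20 (edgeR adjusted p = 0.329).

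The lists of immediate early genes (6 tested, median 0.13), glucocorticoid response (4, median 0.24) and acute phase and host defence (3, median -0.08) held no called gene. In the glucocorticoid list CRISPLD2, a secreted protein induced by the hormone, had the largest log2 fold change, 0.60 (edgeR adjusted p = 0.112). The lists of monocyte and macrophage markers (2 tested), MHC class II (2), plasma cells (1) and heat shock (1) held no called gene either. No member of the lists of T cells, gamma delta T cells, red cells, the circadian clock, ribosomal proteins or the cell cycle could be matched to a tested gene.

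Small nucleolar RNAs, which guide the modification and cutting of ribosomal RNA, and a microRNA gene were among the rising transcripts, and this group too was formed after its values were seen. Of 12 small RNA genes with a symbol, SNORD94, SNORD44, SNORA17, U3 and bta-mir-2350 rose and none fell, with log2 fold changes from 0.42 to 0.70, where 4% of all genes tested rose. None of the 5 was called without calf 85. The median change over the 12 was above 0 in 5 of 8 J calves (median of the calves 0.32) and in 6 of 8 H-F calves (0.34). All 12 were higher on d 1 in calves 7, 9 and 85, and 2 to 5 of 12 in calves 6, 60 and 77. Many such genes lie inside introns of other genes and have near-identical copies, and poly(A) selection does not target them, so their counts are uncertain. Calves 9 and 85 also had the largest shares of counts in genes too low to be tested on d 1, 0.114% and 0.149%, and what part this had in the calls was not tested.

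Other genes with a symbol were spread over many functions. BNIPL, a BCL2-interacting protein of apoptosis, had the smallest p of them and was higher in 8 of 8 calves, by 0.13 in calf 77 to 1.46 in calf 85, at 0.811 to 1.51 CPM on d -14 and 0.931 to 4.25 CPM on d 1. Its log2 fold change was 0.71 ± 0.15 (SE, n = 8, edgeR adjusted p = 0.0367), and 0.57 without calf 85 (adjusted p = 0.453). MET, the receptor of hepatocyte growth factor, fell by 0.22 ± 0.07 on the log2 scale and was lower in 8 of 8 calves.

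TPPP3, a tubulin-binding protein, fell by 0.52 ± 0.13 and was lower in 7 of 8 calves. MYCL, a Myc family factor of dendritic cells, and GPR34, a lysophospholipid receptor of myeloid cells, fell by 0.62 ± 0.19 and 0.50 ± 0.15. HIST1H1C, a linker histone, rose by 0.60 ± 0.18 and was higher in 7 of 8 calves. On d 8, against the same d -14 libraries, 7 of the 51 genes were called (0.668% of all genes), among them TPPP3 (-0.74, edgeR adjusted p = 0.00157), MET (-0.35, 0.0135), GPR34 (-0.60, 0.0789) and HIST1H1C (0.67, 0.0919).

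Among genes given by identifier that rose, ENSBTAG00000010665 had the smallest p. It stood at 1.9 to 4.04 CPM (median 2.96) on d -14 and 3.49 to 10.1 CPM (median 3.88) on d 1, and was higher in 8 of 8 calves, by 0.04 in calf 6 to 1.48 in calf 9. The log2 fold change was 0.72 ± 0.14 (SE, n = 8, edgeR adjusted p = 0.0261), and 0.61 without calf 85 (adjusted p = 0.303). ENSBTAG00000006156 rose by 0.86 ± 0.19 (SE, n = 8, edgeR adjusted p = 0.0528), from a median of 4.85 to 8.30 CPM, with calves 7 and 13 slightly lower on d 1.

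The change from d -14 to d 1 was called in both breeds for 30 genes, which is 4.10% of the J calls and 15.6% of the 192 H-F calls. All 30 moved the same way and 18 of them fell. The change differed between breeds for 2 of 12717 genes (0.0157%) by the interaction of breed and day, and 1104 had p under 0.05 before adjustment. ENSBTAG00000018281 stood at 28.5 to 42.6 CPM on d -14 and 23.9 to 35.6 CPM on d 1 in J calves and was lower in 8 of 8, at a log2 fold change of -0.24, and had one of 0.20 in H-F calves, where 7 of 8 were higher.

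For this gene the difference of the changes, J minus H-F, was -0.44 ± 0.08 (SE, edgeR adjusted p = 0.0561). ENSBTAG00000046584 had log2 fold changes of -0.09 in J and 0.37 in H-F calves, a difference of -0.45 ± 0.09 (SE, edgeR adjusted p = 0.0561). The third by p was EPHX4, an epoxide hydrolase, at -0.30 in J and 0.29 in H-F calves (difference -0.59 ± 0.12, adjusted p = 0.131). No interaction was called without calf 85, without calf 9 or without calf 57, when 594, 582 and 987 genes had p under 0.05 before adjustment, and DESeq2 called 11.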

How the data were processed

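Whole-blood RNA was sequenced after poly(A) selection. The deposited values are raw counts per gene: per the labels and the study's methods, the authors aligned reads to the bovine genome UMD3.1 with STAR, kept unique alignments, and counted them with HTSeq, without normalization (FastQC 0.10.0 was also named in the submitters' processing notes). The sources used here give neither the versions of STAR and HTSeq nor the strand setting.

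The table holds 24616 genes and 92 spike-in sequences in 48 columns. Spike-ins were left out, genes above 1 CPM in at least 8 libraries were kept (12717), and all 48 libraries were fitted together with edgeR 4.0.16 (TMM factors, quasi-likelihood test, R 4.3.3), with calf as a block and a term for each breed and later day. Genes were called at an FDR of 10% after the adjustment of Benjamini and Hochberg, and a DEG also had to change at least 1.5-fold. CPM used TMM library sizes and log2 CPM of single libraries a prior count of 2. Fold changes are the fitted ones, and each SE is derived from the fold change and the F statistic of the fit of all 48 libraries. Python 3.11.15 was used for tables and exact tests.

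The calf numbers in the labels pair the libraries. After group means were removed, log2 CPM of the same J calf on d -14 and d 1 had correlations of 0.47 to 0.71, and of different calves -0.67 to 0.46. The common biological variation (as a coefficient) was 0.106 with the block and 0.197 without it. The study's own test used no block and 7 J calves, and the study reported no differentially expressed genes between days within either breed. Which calf it left out is not stated, and calf 85, which stood apart, was left out in the alternative that follows that test.

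The named genes were the 12 rising and 12 falling DEG with the smallest p (identifiers without a symbol counted, and the first 2 each way printed), up to 4 called members of each of 27 gene lists by p, or the 2 with the smallest p as values, and the 3 genes with the smallest interaction p. Other called genes with a symbol were named after their values were seen. The members, lists and tests were chosen with earlier results of these data known. Symbols came from the name columns of the study's supplementary tables, 696 of 800 identifiers, with 29 corrected or dropped by hand. CPM is not corrected for gene length, so levels are compared within a gene.

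On counts simulated for the J comparison (12717 genes), the block fit recovered 100% of 100 genes given a log2 change of 1 and 96% of 100 given one of 0.585, and called 15 unchanged genes. Without the block the fit recovered 100% and 58% and called 0 unchanged genes. The simulation gave no result for changes that only some calves share, as were seen in the real counts. How many of the real calls are false under such changes was therefore not tested. Globin and mitochondrial shares were not computed, because those identifiers could not be matched to names, and no sequences were used. No columns were left unmatched. Counting error is small at 26219017 or more counts per library, so the spread between calves limits precision except for genes near 1 CPM.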

Additional observations from a re-analysis of the deposited data

Results flagged for a closer look

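Of 71 groups of 8 values tested for a single extreme sample, 3 had one. Chance alone gives about 1 in 20, so the 3 are not more than chance gives. The spike-in share of calf 77 on d -14 was 0.309% of counts, above the other J libraries of that day. The share of counts in genes too low to be tested was 0.126% in calf 85 on d -14. The root mean square log2 distance from the median of the J libraries on d 1 was 0.598 in calf 85.

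The change from d -14 to d 1 differed between breeds by the interaction test of edgeR for ENSBTAG00000018281, by -0.44 on the log2 scale, and for ENSBTAG00000046584, by -0.45, each as J minus H-F. ENSBTAG00000018281 was below 0 in 8 of 8 J calves and above 0 in 7 of 8 H-F calves. ENSBTAG00000046584 was above 0 in 4 of 8 J calves and in 8 of 8 H-F calves. Both genes were picked for their p in this same test, so the counts of calves add no separate support. The smallest edgeR adjusted p of the interaction was 0.0561, and neither gene was called without calf 85, without calf 9 or without calf 57.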

How the results depend on the processing

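In place of 731 called genes and 72 DEG in J calves, leaving out 1 calf gave 4 to 2662 called genes and 4 to 160 DEG, and leaving out calves 9 and 85, chosen after seeing the data, gave 2 and 2. With no replicate block edgeR called 0 genes and 0 DEG, so that every call depends on the pairing by calf. The exact test of edgeR with no block and 7 calves gave 0 and 0, with 276 genes under p 0.05 before adjustment. The 16 J libraries alone gave 3 and 3, no filter on low counts gave 111 called genes, DESeq2 1343 and limma-voom 1335. A mean count of at least 10 gave 119 DEG, limma-voom 111, an FDR of 5% 12 called genes and 10 DEG, and no fold minimum 731. The interaction count of 2 was 0 to 5 with 1 J calf left out, 0 without calves 9 and 85, 0 at an FDR of 5%, 11 by DESeq2 and 0 with no block, with 198 genes under p 0.05 before adjustment. The causes were not tested. Leaving out calf 7, 9, 57 or 85 lost the call of 50 of 56, 53 of 55, 49 of 56 and 54 of 56 named genes, and leaving out calf 13 that of 28. No named gene changed sign while called. Of the called genes, 4 kept their call without each single calf, all of them falling, and 2 in every fit with calf as a block.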
